A study of Homo sapiens with 52 samples.

Results

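The CDK inhibitor genes are the 7 genes CDKN1A, CDKN1B, CDKN1C, CDKN2A, CDKN2B, CDKN2C and CDKN2D, chosen by name from the 27043 genes of the deposited expression tables, and all 7 were above the expression minimum used for testing, as were 16359 genes in all. RNA-seq was performed on cells labelled RH4, an established line of fusion-positive rhabdomyosarcoma (FP-RMS), a childhood soft tissue cancer with skeletal muscle features, and all samples, controls included, were labelled as carrying the PAX3-FOXO1 fusion. In the screen, 20 compounds were applied for 6 h at a high and a low dose, 1 sample each. The doses were 10 and 1 µM, except for LAQ824, Cpd50 and GSKJ4 at 5 and 0.5 µM. The 4 screen controls received the solvent DMSO at 0.2% or 0.1%, with 2 samples at each concentration. By their labelled targets, LAQ824 (HDAC), MC1568 (HDAC4/5), Merck60 (HDAC1/2), OJI-1 (HDAC8) and WT161 (HDAC6) were histone deacetylase (HDAC) inhibitors. Bromosporin (bromodomain) and SGC-CBP30 (CREBBP/EP300) were inhibitors of acetyl-lysine readers. Another 11 compounds (Cpd50, EZ-005, GSKJ4, GSKLSD1, LSD-519, LSD-690, PFI-2, SGC0946, UNC0638, UNC-1215 and UNC1999) were aimed at enzymes or readers of lysine methylation, PFI-3 at SMARCA4 and trametinib at MEK1/2. A further 2 samples held the HDAC inhibitor N1302 (1 µM) and its DMSO control at 6 h, and 6 samples held the HDAC1/2/3 inhibitor entinostat (1 µM) or DMSO at 1, 6 and 24 h. The screen samples are titled RH41 although RH4 is their labelled cell line, so no screen sample was set against a sample of the other experiments. All values come from bulk cultures of tumour cells, in which fewer cells with a transcript and less of it per cell cannot be told apart.

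Cyclin-dependent kinases (CDKs) drive cells through the division cycle once they are bound by cyclins, and CDK inhibitor proteins hold them back. The CIP/KIP members, encoded by CDKN1A (p21), CDKN1B (p27) and CDKN1C (p57), bind cyclin-CDK complexes, CDK2 complexes above all. The INK4 members, encoded by CDKN2A (p16), CDKN2B (p15), CDKN2C (p18) and CDKN2D (p19), bind CDK4 and CDK6 and keep them from D-type cyclins. CDKN1A is a classic target of p53 and the textbook gene induced by HDAC inhibitors, whereas the amount of p27 is set largely by protein degradation, which RNA does not show. CDKN2A also encodes the unrelated protein ARF from another promoter and reading frame.

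In hg19, the build of the files, CDKN1A spans chr6:36644237-36655116, CDKN1B chr12:12870204-12875316 and CDKN1C chr11:2904448-2906995. CDKN2A (chr9:21967751-21994490) and CDKN2B (chr9:22002902-22009312) are neighbours on chromosome 9, CDKN2C spans chr1:51434367-51440309 and CDKN2D chr19:10677138-10679655. All are annotated as protein-coding, the CDKN1A, CDKN1B and CDKN2C genes on the plus strand and the others on the minus strand. The CDKN2A row spans the start sites of both p16 and ARF, so these transcripts were not separated. Whether counting used strand was not given in the sources used here, so reads of CDKN2B and of CDKN2B-AS1, which runs antisense across it, may be mixed.

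The promoters of the 3 genes that rose together under LAQ824, WT161 and bromosporin (CDKN1A, CDKN2B and CDKN2D) are shown first, with that of CDKN1B, which fell under LAQ824, for comparison. RefSeq windows on GRCh38.p14 were at hand for 6 of the 7 genes. Each line gives the 150 bases before the annotated start, 5′ to 3′ on the strand of the gene, in lower case with every GC box in capitals. A GC box, the DNA motif of SP1-type factors, was searched as GGGCGG and its reverse complement CCGCCC, and boxes that overlap run together. The windows lie at chr6:36678564-36678713 (plus strand), chr9:22009306-22009455 (minus strand), chr19:10568980-10569129 (minus strand) and chr12:12717218-12717367 (plus strand).
CDKN1A: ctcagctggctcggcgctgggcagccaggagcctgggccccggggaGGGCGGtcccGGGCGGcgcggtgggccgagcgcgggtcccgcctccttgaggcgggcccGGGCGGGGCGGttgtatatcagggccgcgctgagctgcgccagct
CDKN2B: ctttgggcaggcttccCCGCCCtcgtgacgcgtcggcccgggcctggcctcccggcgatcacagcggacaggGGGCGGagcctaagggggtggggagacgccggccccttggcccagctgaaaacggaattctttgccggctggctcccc
CDKN2D: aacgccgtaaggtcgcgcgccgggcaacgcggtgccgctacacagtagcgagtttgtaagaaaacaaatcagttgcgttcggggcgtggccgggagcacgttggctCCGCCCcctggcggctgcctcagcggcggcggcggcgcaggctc
CDKN1B: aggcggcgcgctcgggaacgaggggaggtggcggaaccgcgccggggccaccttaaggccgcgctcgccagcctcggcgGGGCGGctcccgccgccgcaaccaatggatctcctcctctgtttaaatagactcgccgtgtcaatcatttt

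Over the 250 bases before the start, the CDKN1A window held 4 GC boxes, the CDKN2B window 2, the CDKN2D window 2 and the CDKN1B window 1. At least 1 box was present in 42.6% of the 35116 promoter windows in the table, at least 2 in 24.3% and at least 3 in 13.9%. Of 3 annotated starts of CDKN2C, which also fell under LAQ824, the windows held 0, 5 and 1 boxes, and the windows of the 2 CDKN2A starts held 0 and 1. Boxes were thus present before genes that rose and before genes that fell. A match is a string of letters in this window and not a measured binding site.

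Expression was deposited as TPM (transcript abundance scaled to a fixed total per sample), which is adjusted for transcript length, so that levels of different genes can be compared. The tables corresponded to 5737939 to 41415071 reads per sample. The 4 DMSO samples carried 2 run codes, and once the run was allowed for, the samples of a concentration differed by no more than counting noise (1.03 times the noise expected from read numbers, at the median of 10378 genes). The differences between the 2 runs and between the 2 concentrations were 2.21 and 2.47 times that noise. For DMSO levels the samples of a concentration were counted as 1 sample. Means and SD are given over the 2 concentrations, whereas limma used the 4 samples separately. Of the 20 compounds, 16 were on runs without a DMSO sample, 14 of them on the run with the lowest median depth (10571890 reads). Muscle lineage and FP-RMS markers were high in the screen controls (MYOD1 640 to 648 TPM, MYOG 572 to 587 TPM), whereas the leukocyte gene PTPRC and the epithelial gene KRT5 were at 0 in all 4, and no other marker of leukocytes, epithelium, endothelium or liver was above 0.436 TPM in them.

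In DMSO the 7 genes spanned a wide range of levels. CDKN2A was highest at 135 ± 2.76 TPM (SD, n = 2), followed by CDKN2C at 75.5 ± 2.04 TPM and CDKN1B at 75.2 ± 1.32 TPM, which overlapped (71.6 to 77.2 and 71.2 to 81.1 TPM over the 4 samples). CDKN1A was intermediate at 26.7 ± 1.87 TPM and CDKN2D lower at 6.81 ± 0.607 TPM. CDKN1C (1.36 ± 0.0242 TPM) and CDKN2B (1.24 ± 0.124 TPM) were near the limit of detection and overlapped, with 13 to 25 and 27 to 42 reads per DMSO sample, so that changes of these 2 genes rest on few reads wherever they stay low. The 4 samples ran from 1.10 to 1.59 TPM for CDKN1C and from 1.11 to 1.38 TPM for CDKN2B. The small SD of CDKN1C over the 2 concentrations does not show that spread. No member was called between 0.2% and 0.1% DMSO (0 of 7 and 0% of all genes by limma at an adjusted p below 0.05). Of all genes, 1548 had an unadjusted limma p below 0.05. The members' differences in log2(TPM + 1) ran from -0.16 for CDKN2D to 0.11 for CDKN2B.

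**Figure D1:**
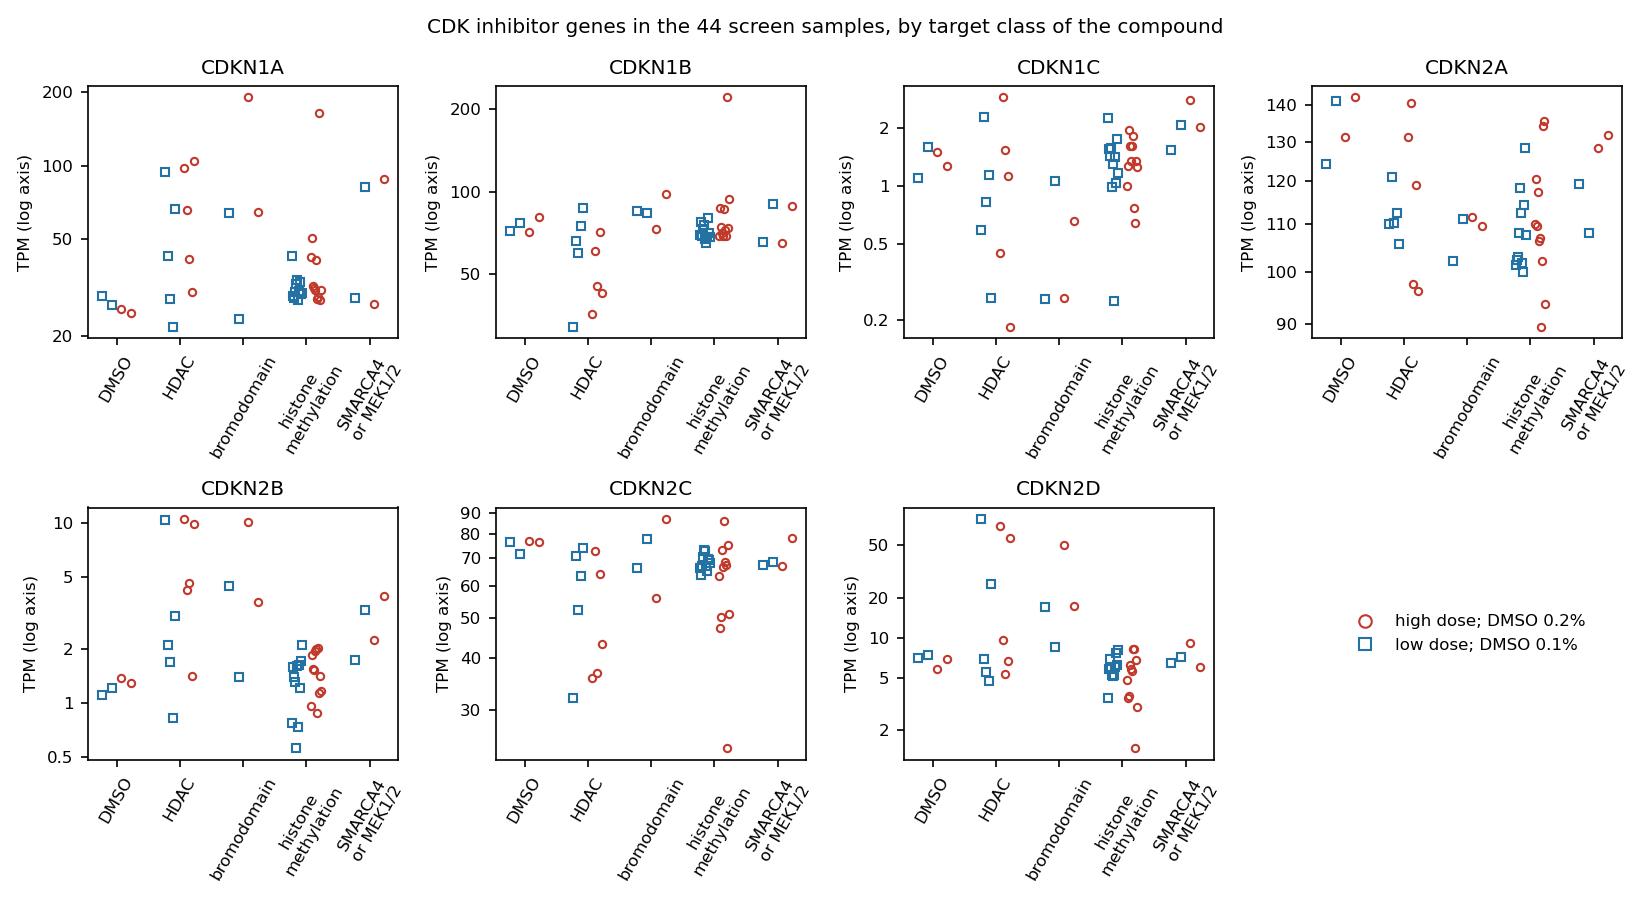
TPM (log axis, a separate scale for each gene) of the 7 CDK inhibitor genes in the 44 screen samples, grouped by target class on the horizontal axis, with 1 point per sample, red circles for the high dose or 0.2% DMSO and blue squares for the low dose or 0.1% DMSO. CDKN1A, CDKN2B and CDKN2D reach their highest levels (191, 10.5 and 79.3 TPM) in bromodomain or HDAC inhibitor samples, while CDKN2A stays between 89.5 and 142 TPM.

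Each compound, both doses together, was compared with the 4 DMSO samples with limma on log2(TPM + 1), over all 16359 genes, with changes called where the adjusted p was under 0.05. Of 140 tests of a member against a compound, 25 (17.86%) were called, 13 higher and 12 lower, beside 12.67% of all tests over all genes. The calls were not spread evenly. LAQ824 changed 6 members (3 higher, 3 lower; background 60.5% of all genes), bromosporin 5 (3 higher, 2 lower; 46%), WT161 5 (3 higher, 2 lower; 41.8%) and UNC0638 3 (2 higher, 1 lower; 25.2%). A single member was called under MC1568 (33.2% of all genes), Cpd50 (11%), trametinib (6.14%), PFI-2 (1.91%), SGC0946 (0.819%) and UNC1999 (0.789%). None was called under SGC-CBP30 (9.84%), GSKLSD1 (7.88%), LSD-690 (4.03%), LSD-519 (1.74%), OJI-1 (1.22%), Merck60 (0.648%), EZ-005 (0.617%), UNC-1215 (0.0672%), PFI-3 (0.0245%) or GSKJ4 (0.00611%). When both DMSO samples of a concentration were averaged, 16 of the 25 calls were kept, and each call lost is named with its gene. Fewer of all genes were also called in that fit under LAQ824 (53.1%), bromosporin (35.8%), WT161 (32%) and UNC0638 (12.1%). A fit of each compound with only its own samples and DMSO gave 43 calls, among them 21 of the 25. The share of all genes called in that fit is not given here, so the count alone says nothing particular about the members. Of the 17 calls on the run with 14 compounds, 8 were kept when the other compounds of that run served as the reference in place of DMSO. The share of all genes kept in this way is not given here either.

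**Figure D2:**
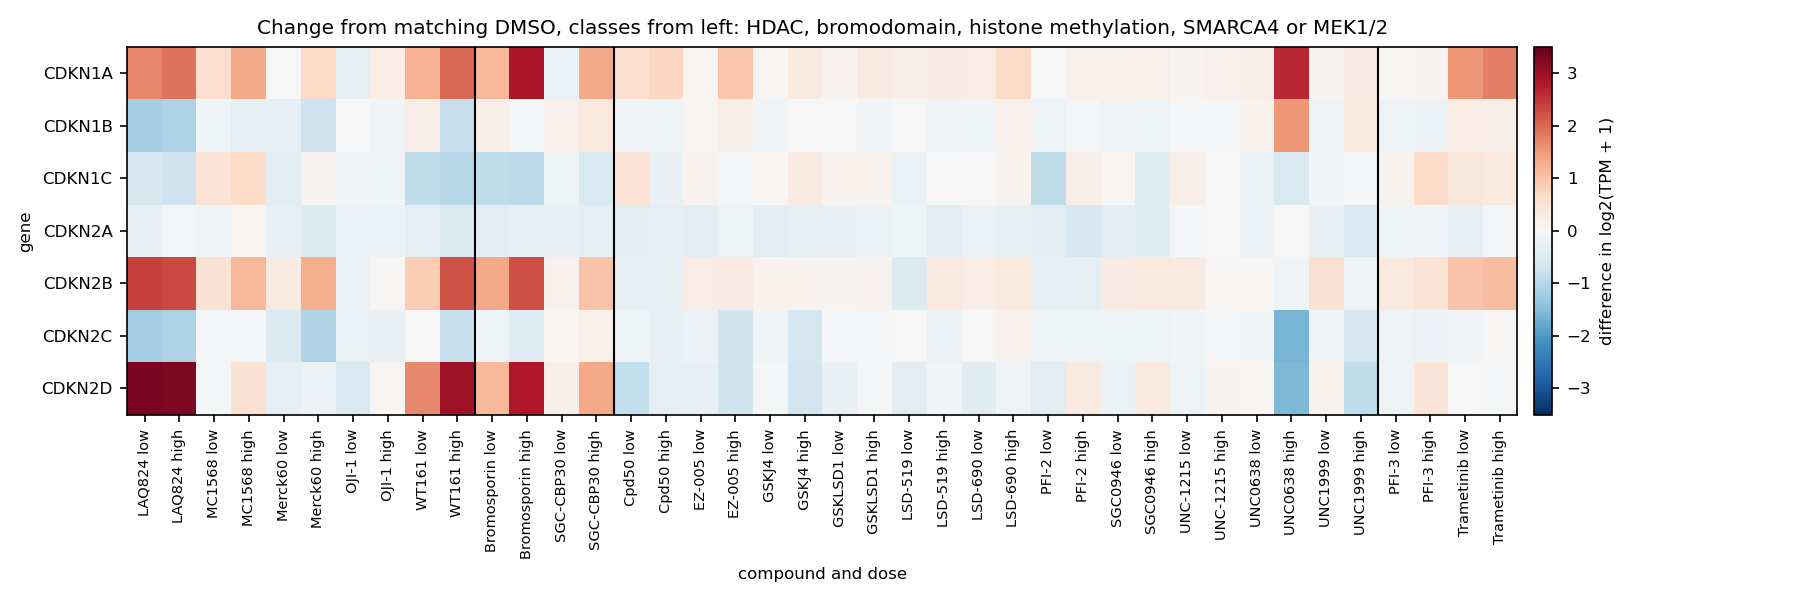
Difference in log2(TPM + 1) from the mean of the 2 DMSO samples of matching concentration (colour) for the 7 genes (rows) in the 40 treated screen samples (columns, low then high dose of each compound), with vertical lines between target classes. Of the 280 values, 35 (12.5%) are at least 1 in size, beside 5.97% of the values of all tested genes; they lie mainly in the CDKN1A, CDKN2B and CDKN2D rows under LAQ824, WT161 and bromosporin, and in the UNC0638 high-dose column.

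CDKN1A was called higher under 5 compounds of different classes, among them 2 of the 5 HDAC inhibitors. It lay above matching DMSO in 38 of 40 treated samples, and its mean over both doses was above DMSO for 19 of 20 compounds. The share of all genes for which this held is not given here, and the same controls enter all of these comparisons. In the 4 DMSO samples CDKN1A was at 25.9 and 24.9 TPM (0.2%) and at 29.2 and 26.8 TPM (0.1%). Under LAQ824 it reached 97.7 TPM at 5 µM and 94.0 TPM at 0.5 µM, and under WT161 104 TPM at 10 µM and 66.6 TPM at 1 µM. All 4 of these samples lay above every DMSO sample, and LAQ824 gave nearly the same level at both doses. Bromosporin took CDKN1A to 191 TPM at 10 µM, the highest of the screen, and to 64.0 TPM at 1 µM. The log2 fold changes were 2.01 ± 0.41 (SE) for bromosporin (adjusted p = 0.000289), 1.81 ± 0.41 for LAQ824 (adjusted p = 0.000426) and 1.61 ± 0.41 for WT161 (adjusted p = 0.00242). Trametinib, which blocks the kinase step above ERK, gave 87.9 and 81.9 TPM at the high and low dose (1.64, adjusted p = 0.0134). Cpd50 gave 42.2 and 42.7 TPM (0.65, adjusted p = 0.379) and LSD-690 41.2 and 34.0 TPM (0.48, adjusted p = 0.631). These 4 samples also lay above every DMSO sample. Both compounds were called with only their own samples and DMSO in the limma fit (adjusted p = 0.00144 and 0.0253).

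UNC0638, whose labelled target is the histone methyltransferase KMT1C, differed sharply between its doses. CDKN1A was at 164 TPM at 10 µM and at 33.3 TPM at 1 µM (limma over both doses 1.45, adjusted p = 0.0118). In the same high-dose sample CDKN1B was at 221 TPM, CDKN2C at 24.2 TPM and CDKN2D at 1.47 TPM, against 80.4, 69.8 and 7.70 TPM at the low dose. The high-dose sample thus held the highest CDKN1B and the lowest CDKN2C and CDKN2D of the screen, the last from 5 reads. The UNC0638 calls for CDKN1A, CDKN1B and CDKN2C were lost when only the UNC0638 and DMSO samples were fitted (adjusted p = 0.211, 0.247 and 0.241). Those for CDKN1A and CDKN1B were also lost with DMSO averaged per concentration (adjusted p = 0.0529 and 0.0595).

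The other HDAC inhibitors moved CDKN1A less. MC1568 gave 65.7 TPM at 10 µM and 42.8 TPM at 1 µM, above every DMSO sample, but the change missed the threshold (0.97 ± 0.41, adjusted p = 0.0691), which it passed with only the MC1568 and DMSO samples in the fit (adjusted p = 0.00602). Merck60 gave 41.4 and 28.4 TPM (0.35, adjusted p = 0.824) and OJI-1 30.3 and 21.9 TPM (-0.05, adjusted p = 1), with the OJI-1 low-dose sample the lowest CDKN1A of the screen. Within the run that LAQ824 and MC1568 shared with a DMSO sample of each concentration, CDKN1A differed from that DMSO by 1.93 (high) and 1.77 (low) under LAQ824 and by 1.37 and 0.66 under MC1568. WT161, bromosporin, trametinib and UNC0638 were on the run without DMSO. Against the other compounds of that run CDKN1A remained higher under bromosporin (1.45, adjusted p = 0.0144), whereas WT161 (1.02, adjusted p = 0.0805), trametinib (1.05, adjusted p = 0.26) and UNC0638 (0.84, adjusted p = 0.187) missed the threshold. The CDKN1A call of trametinib was also lost with DMSO averaged per concentration (adjusted p = 0.0797).

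**Figure D3:**
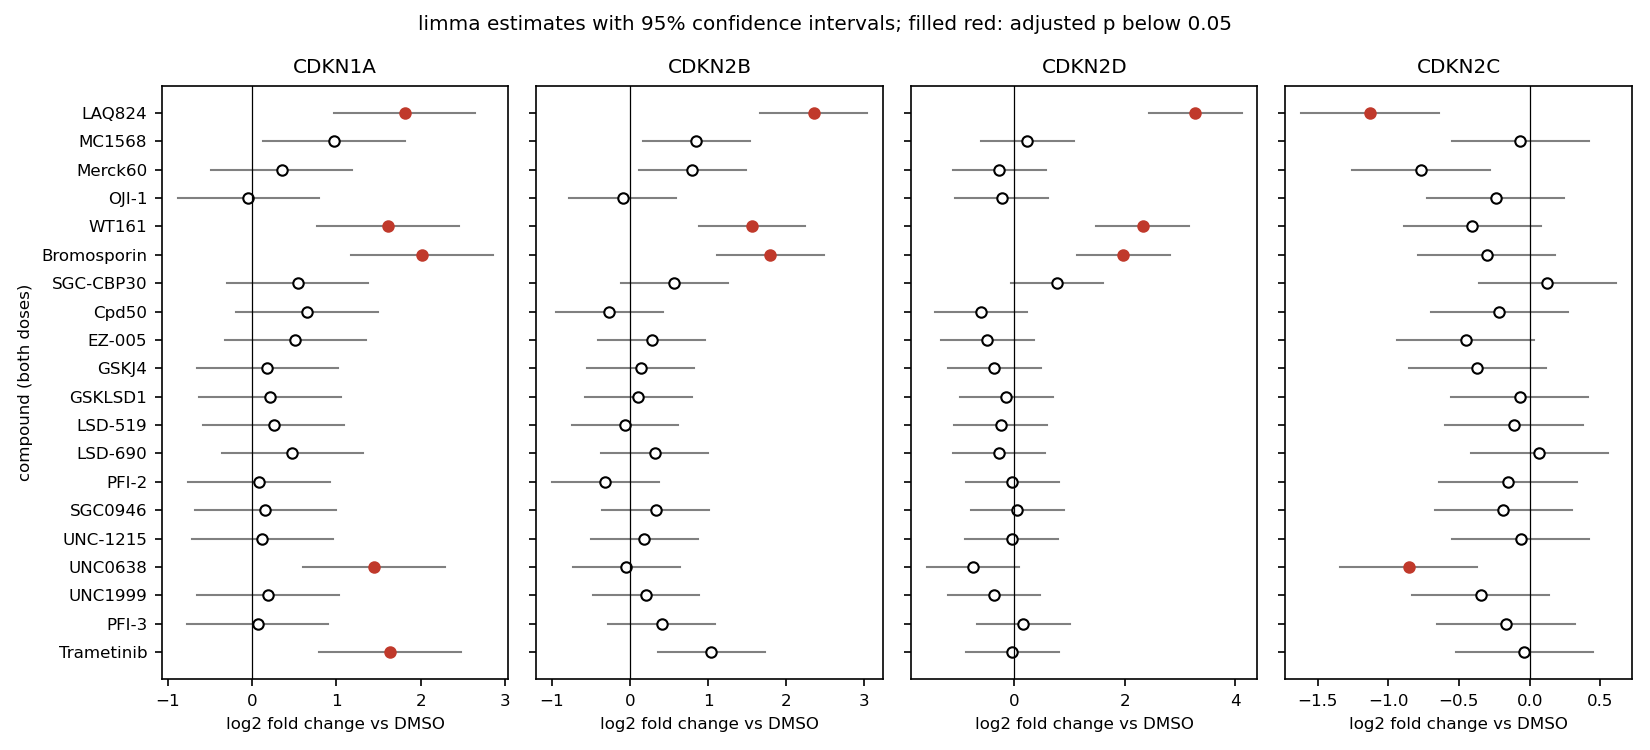
limma log2 fold change against DMSO on the log2(TPM + 1) scale (horizontal axis) with 95% confidence interval, for CDKN1A, CDKN2B, CDKN2D and CDKN2C (panels with separate scales) under each of the 20 compounds (vertical axis); filled red points had an adjusted p below 0.05. LAQ824, WT161 and bromosporin are called in each of the first 3 panels, with CDKN2D under LAQ824 furthest from 0 at 3.27.

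CDKN2B and CDKN2D, which encode the CDK4/6 inhibitors p15 and p19, rose under LAQ824, WT161 and bromosporin and were called under no other compound. CDKN2D was between 5.88 and 7.48 TPM in DMSO. It reached 69.7 TPM at the high and 79.3 TPM at the low dose of LAQ824, 56.5 and 25.5 TPM under WT161, and 50.2 and 17.3 TPM under bromosporin. All 6 samples lay above every DMSO sample, and the low doses of WT161 and bromosporin lay below the high doses. The log2 fold changes were 3.27 ± 0.41 (adjusted p = 1.59e-07), 2.32 ± 0.41 (adjusted p = 6.09e-05) and 1.97 ± 0.41 (adjusted p = 0.000356). Within their run, the LAQ824 samples were 3.17 and 3.24 above DMSO.

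CDKN2B, between 1.11 and 1.38 TPM in DMSO, was also above every DMSO sample in all 6 of these samples. LAQ824 gave 10.5 and 10.4 TPM, WT161 9.87 and 3.02 TPM, and bromosporin 10.2 and 4.44 TPM at the high and low dose. The log2 fold changes were 2.35 ± 0.33 (adjusted p = 1.04e-06), 1.56 ± 0.33 (adjusted p = 0.000482) and 1.80 ± 0.33 (adjusted p = 0.000113). The changes of both genes under WT161 and bromosporin were also called against the other compounds of the run, at 1.16 and 1.41 for CDKN2B and at 2.31 and 1.93 for CDKN2D. Trametinib raised CDKN1A but gave CDKN2B levels of 3.95 and 3.29 TPM that missed the threshold (1.04 ± 0.33, adjusted p = 0.0616; 0.00137 with only the trametinib and DMSO samples), and CDKN2D stayed at 5.99 and 7.20 TPM (-0.04, adjusted p = 0.998). MC1568 had CDKN2B at 4.24 and 2.11 TPM at the high and low dose, above every DMSO sample. This change narrowly missed the threshold (0.85 ± 0.33, adjusted p = 0.0504), which it passed with only the MC1568 and DMSO samples in the fit (adjusted p = 0.0175). Within its run it was 1.20 and 0.49 above DMSO. Merck60 at 10 µM had CDKN2B at 4.63 TPM and CDKN2D at 5.35 TPM, the latter below all 4 DMSO samples.

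CDKN1B and CDKN2C, both abundant in DMSO, fell under LAQ824. CDKN1B was at 71.2, 81.1, 71.9 and 76.7 TPM in DMSO and at 35.7 and 32.1 TPM under LAQ824 (-1.13 ± 0.24, adjusted p = 0.000217). CDKN2C, which encodes p18, was at 77.2, 76.8, 76.6 and 71.6 TPM in DMSO and at 35.9 and 32.1 TPM under LAQ824 (-1.13 ± 0.24, adjusted p = 0.00019). The groups did not overlap, and within the run of LAQ824 the differences were -1.16 and -1.23 for CDKN1B and -1.07 and -1.13 for CDKN2C. Both genes were low in the high-dose samples of WT161 (42.7 and 43.4 TPM) and Merck60 (45.3 and 36.8 TPM), but their mean changes over both doses missed the threshold. At 1 µM WT161, CDKN1B was at 87.2 TPM, above every DMSO sample, and CDKN2C at 74.2 TPM, within the DMSO range. With only the Merck60 and DMSO samples in the fit, the falls of CDKN1B and CDKN2C under Merck60 were called (adjusted p = 0.0419 and 0.0263). The only call in the other direction was CDKN1B under UNC0638 (0.82 ± 0.24, adjusted p = 0.0142), and CDKN2C fell under that compound (-0.86 ± 0.24, adjusted p = 0.0103).

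CDKN1C, the imprinted gene of p57, fell under WT161 (-0.95 ± 0.23, adjusted p = 0.00168), bromosporin (-0.90 ± 0.23, adjusted p = 0.00232) and LAQ824 (-0.64 ± 0.23, adjusted p = 0.0189). Its levels were 0.185 and 0.260 TPM under WT161 and 0.262 and 0.258 TPM under bromosporin, from 2 to 4 reads per sample, and 0.445 and 0.588 TPM under LAQ824, from 9 and 14 reads, all below the lowest DMSO sample (1.10 TPM). MC1568 moved CDKN1C the other way, to 2.87 and 2.27 TPM (0.59 ± 0.23, adjusted p = 0.0478), both above the highest DMSO sample (1.59 TPM). The MC1568 call was lost on leaving out any of the 4 DMSO samples (adjusted p = 0.051 to 0.101), and the MC1568 and LAQ824 calls were lost with DMSO averaged per concentration (adjusted p = 0.12 and 0.0524). A TPM of 0.252 under PFI-2 at 1 µM stood on 1 read.

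CDKN2A changed least. Its 44 screen values differed by at most 1.59-fold between the lowest (89.5 TPM, PFI-2 at 10 µM) and the highest (142 TPM, a DMSO sample). It was lower than matching DMSO in 39 of 40 treated samples, which held for 0.746% of all genes, and its mean over both doses was below DMSO for all 20 compounds. The fall was called for 6 compounds of different classes, PFI-2 (-0.49), UNC1999 (-0.42), WT161 (-0.41), SGC0946 (-0.41), Cpd50 (-0.35) and bromosporin (-0.33; SE 0.10 for each). Falls at least as large as that of bromosporin, with the same SE, were not called under Merck60 (-0.37, adjusted p = 0.0873) and GSKJ4 (-0.34, adjusted p = 0.659). Because p-values were adjusted over all genes of a compound, a call also depends on how many of its other genes changed. The control samples enter all of these comparisons. Against the other compounds of the run none of the 5 compounds on it was called, with differences from -0.21 (PFI-2) to -0.04 (bromosporin). Cpd50, which shared a run with DMSO, was 0.25 (high) and 0.29 (low) below that DMSO. The SGC0946 and UNC1999 calls were lost on leaving out any DMSO sample (adjusted p = 0.0577 to 0.138 and 0.0547 to 0.13), and the Cpd50 call without replicate 2 of either concentration (adjusted p = 0.0614 and 0.0653). With DMSO averaged per concentration the Cpd50, PFI-2, SGC0946 and UNC1999 calls were lost (adjusted p = 0.09, 0.0554, 0.261 and 0.22). The UNC1999 call was also lost with only the UNC1999 and DMSO samples in the fit (adjusted p = 0.052).

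To ask whether the HDAC inhibitors as a class moved these genes, the means of the 5 HDAC inhibitors were set against those of the 15 other compounds, without use of DMSO. CDKN1A averaged 0.94 ± 0.79 (SD, n = 5) above DMSO under HDAC inhibitors and 0.57 ± 0.62 (SD, n = 15) under the others. The difference of 0.37 was smaller than the spread in either class (exact permutation test over compounds, two-sided, p = 0.291). Among the 14 compounds of the largest run it was -0.03 (exact permutation p = 0.931, 3 HDAC inhibitors against 11 others). That run held Merck60, OJI-1 and WT161 but not LAQ824 or MC1568, so this value rests on other compounds as well as on a single run. Bromosporin, trametinib and UNC0638, which are no HDAC inhibitors, were among the 5 compounds with the highest CDKN1A.

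No member was called for the class in limma, and 1 gene (0.00611%) was called in all, while 4042 had an unadjusted p below 0.05. The differences were 1.09 ± 0.46 (SE) for CDKN2D (adjusted p = 0.156), 0.78 ± 0.31 for CDKN2B (adjusted p = 0.135), -0.50 ± 0.15 for CDKN1B (adjusted p = 0.0917) and -0.31 ± 0.15 for CDKN2C (adjusted p = 0.192). CDKN1B and CDKN2C were below DMSO for all 5 HDAC inhibitors. Of the 15 other compounds, only 2 had CDKN2C above DMSO and 7 had CDKN1B above it. A level below DMSO was thus not particular to HDAC inhibitors for CDKN2C. CDKN2D was above DMSO for 3 of the HDAC inhibitors and for 4 of the others. Under HDAC inhibitors its change lay between -0.27 (Merck60) and 3.27 (LAQ824). OJI-1 stood closest to DMSO for CDKN1A and CDKN1B. Without OJI-1 the differences were called for CDKN1B (-0.60, adjusted p = 0.0178), CDKN2B (1.08, adjusted p = 0.023) and CDKN2D (1.42, adjusted p = 0.0469), and not for CDKN1A (0.62, adjusted p = 0.181). This is 1 of the fits that leave out a compound, and the share of all genes called in it is not given here. Its calls are thus given without a background and say nothing particular about the members.

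The 4 HDAC inhibitors tested at 1 and 10 µM were compared with each other in 6 pairs. CDKN1A was higher under WT161 than under OJI-1 by 1.66 (95% confidence interval 0.69 to 2.62, adjusted p = 0.00706; background 37.3% of genes) and than under Merck60 by 1.26 (0.29 to 2.23, adjusted p = 0.0406; 33.9%). The Merck60 difference missed the threshold with DMSO averaged, with median-ratio scaling and without the expression filter (adjusted p = 0.0522, 0.0559 and 0.0672). MC1568 differed from OJI-1 by 1.01 (0.05 to 1.98, adjusted p = 0.0901; 38.6%), from Merck60 by 0.62 (-0.35 to 1.59, adjusted p = 0.383; 20.6%) and from WT161 by -0.64 (-1.61 to 0.33, adjusted p = 0.284; 43.1%), and Merck60 from OJI-1 by 0.40 (-0.57 to 1.37, adjusted p = 0.764; 1.81%). These p-values were adjusted over all genes within each pair, and MC1568 was on another run than the other 3 compounds. For CDKN2D the differences from WT161 were -2.09 for MC1568, -2.60 for Merck60 and -2.56 for OJI-1 (adjusted p = 0.000832, 0.000163 and 0.000143). LAQ824 entered no pair, as its doses differed from those of the others.

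Across the 20 compounds, no member was called between the high and the low dose (0% of all genes; 2874 had an unadjusted p below 0.05). The mean differences were 0.43 ± 0.13 (SE) for CDKN1A (adjusted p = 0.152) and 0.37 ± 0.11 for CDKN2B (adjusted p = 0.137), and between -0.17 (CDKN2C) and 0.09 (CDKN2D) for the others. For CDKN1A the high dose exceeded the low dose most under UNC0638 (164 against 33.3 TPM), bromosporin (191 against 64.0 TPM) and SGC-CBP30 (64.8 against 23.5 TPM).

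Under N1302, an HDAC inhibitor at 1 µM, CDKN2D rose from 3.91 to 70.1 TPM and CDKN2B from 2.02 to 11.1 TPM relative to DMSO of the same experiment. CDKN1A went from 60.1 to 196 TPM and CDKN2A from 49.0 to 142 TPM, whereas CDKN1B went from 97.6 to 38.5 TPM and CDKN2C from 63.1 to 33.7 TPM. On TPM the ratios were 17.9 (95% counting interval 13.6 to 24.1) for CDKN2D, 5.47 (4.27 to 7.08) for CDKN2B, 3.27 (3.07 to 3.48) for CDKN1A and 2.90 (2.65 to 3.17) for CDKN2A. CDKN1B and CDKN2C stood at ratios of 0.394 (0.362 to 0.429) and 0.533 (0.480 to 0.592). With 1 sample per condition there was no replicate check, and the intervals cover counting error only. On log2(TPM + 1), 5 of the 7 members were at least 2-fold away from DMSO, as were 30.9% of all genes; with median-ratio scaling of the libraries these were 4, without CDKN1B. The N1302 control stood apart from the DMSO samples of the time course, with CDKN1A at 60.1 TPM against 27.8 to 41.6 TPM and CDKN2A at 49.0 TPM against 95.3 to 106 TPM. Relative to the mean of this control and the 6 h DMSO sample of the time course, the log2 change of CDKN1A became 2.23 in place of 1.69 and that of CDKN2A 1.04 in place of 1.52.

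Under entinostat, CDKN1A was at 49.1 TPM against 41.6 TPM in DMSO at 1 h, at 128 against 27.8 TPM at 6 h and at 291 against 28.1 TPM at 24 h. The ratios were 1.18 (95% counting interval 1.08 to 1.28), 4.61 (4.25 to 5.00) and 10.3 (9.63 to 11.1), so that CDKN1A was above DMSO at every time and furthest at 24 h. CDKN2B was at 0.732, 4.46 and 17.6 TPM against 0.640, 0.617 and 1.05 TPM in DMSO. CDKN2D was at 4.86, 10.3 and 29.6 TPM against 5.59, 5.53 and 6.30 TPM.

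CDKN2B and CDKN2D thus lay within counting error of DMSO at 1 h (ratios 1.14, interval 0.652 to 2.00, and 0.870, interval 0.620 to 1.21) and above it at 24 h, by ratios of 16.8 (12.7 to 22.5) and 4.70 (3.83 to 5.81). CDKN2C fell from DMSO levels of 66.6 and 65.7 TPM to 35.8 TPM at 6 h and 34.6 TPM at 24 h, a ratio of 0.538 (0.496 to 0.582) and 0.527 (0.485 to 0.572). CDKN1B stood at 0.632 of DMSO (0.592 to 0.675) at 6 h and 0.754 (0.709 to 0.802) at 24 h. At 1 h CDKN1B and CDKN2C were at 0.840 (0.785 to 0.899) and 0.909 (0.842 to 0.980) of DMSO. CDKN2A was above DMSO at 6 h (120 against 95.3 TPM, ratio 1.25, interval 1.18 to 1.34) and close to it at 24 h (101 against 96.3 TPM). CDKN1C stayed at or below 0.653 TPM in all 6 samples. Past 2-fold on log2(TPM + 1) were 0 of 7 members at 1 h (1.24% of all genes), 2 at 6 h (6.08%) and 3 at 24 h (22.4%). These are single samples, and the size of the differences between times could not be tested.

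**Figure D4:**
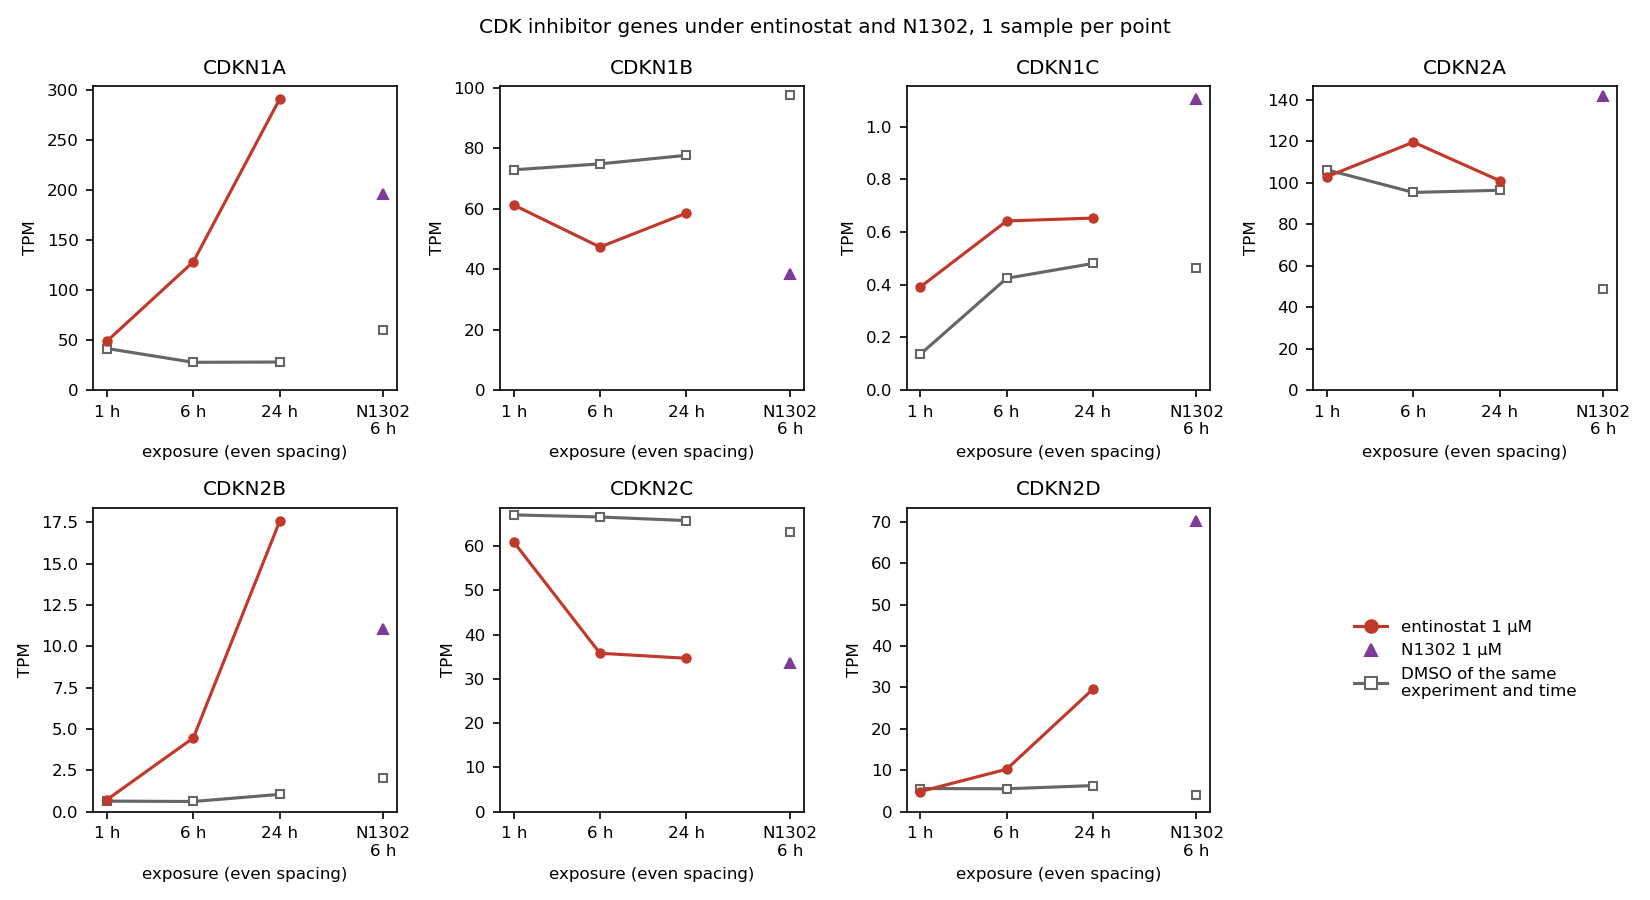
TPM (linear axis from 0, a separate scale for each gene) of the 7 CDK inhibitor genes under entinostat at 1, 6 and 24 h and under N1302 at 6 h, beside the DMSO sample of the same experiment and time, 1 sample per point, with times evenly spaced. CDKN1A, CDKN2B and CDKN2D separate from DMSO by 24 h of entinostat (291, 17.6 and 29.6 TPM). CDKN2C lies slightly below it at 1 h and further below from 6 h on. CDKN2A lies furthest above its control under N1302 (142 against 49.0 TPM).

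The binding partners of these inhibitors were described from a list of 12 cyclins, CDKs and pocket proteins. Of their 240 tests against compounds, 39 were called (16.25%), 12 higher and 27 lower, beside 12.67% over all genes. Under LAQ824, 1 partner was higher and 6 were lower, a share near the 60.5% of all genes called. Under WT161 and bromosporin 2 were higher and 6 lower each, beside 41.8% and 46% of all genes. CCND1, the cyclin D1 gene, fell by 2.98 under LAQ824, by 1.75 under WT161 and by 2.02 under bromosporin on the log2 scale, and CDK6, a target of the INK4 proteins, fell by 2.54, 1.28 and 1.25. CCND2 fell by 1.80 under LAQ824. CDK2 rose by 0.43, 0.76 and 0.48, and RBL1, which encodes the pocket protein p107, fell by 0.75, 0.75 and 1.22.

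Of 12 regulators of the family, 31 of 240 tests were called (12.92%), 7 higher and 24 lower, a share near the 12.67% of all genes, so the changes below are values of single genes. SKP2, the F-box protein that marks p27 for degradation, fell by 2.16 under LAQ824 and by 1.10 under WT161. MYC, a repressor of CDKN1A and CDKN2B, fell by 1.91 and 1.20, and SP3, a GC-box binding factor, by 1.51 under LAQ824. Under bromosporin EZH2 rose by 0.63, and BMI1 and ZBTB17 fell by 1.24 and 0.94, BMI1 also by 1.21 under WT161. Among 6 locus neighbours, 12 of 120 tests were called (10%), 7 higher and 5 lower. KCNQ1OT1, the long non-coding RNA of the imprinted domain of CDKN1C, rose by 1.61 under LAQ824, 0.71 under bromosporin and 0.62 under WT161, the compounds under which CDKN1C fell. A link between these changes was not tested, and CDKN1C rested on 2 to 14 reads in those samples. SRSF3, near CDKN1A, fell by 0.33 under WT161 and 0.24 under bromosporin, FAF1, near CDKN2C, by 0.61 under bromosporin, and CDKN2B-AS1 by 0.57 under LAQ824 while CDKN2B rose. None of the genes in the 3 lists was called for HDAC inhibitors against other compounds; the medians of the differences were -0.18 for partners, -0.31 for regulators and 0.04 for neighbours, beside 0.03 for the CDK inhibitor genes and 0.06 for all genes. The smallest adjusted p-values were those of SP3 (-0.55, adjusted p = 0.0917), CCNA2 (-0.30, 0.111), SKP2 (-0.59, 0.119), BMI1 (-0.48, 0.155), KCNQ1OT1 (0.45, 0.184), CCND3 (0.35, 0.204), CDK4 (-0.27, 0.218), SRSF3 (-0.15, 0.303) and DMRTA1 (0.14, 0.593).

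Over the 44 screen samples, genes were ranked by the likeness of their pattern to that of each member (Spearman's rho of log2(TPM + 1), among 13831 genes). The samples share DMSO controls, runs and depth, and the coefficients describe these libraries only. Closest to CDKN1A were APAF1 (0.78), PAIP2B (0.76) and EFNA1 (0.75). Closest to CDKN2B were GGCX (0.80) and FGD6 (0.79), and to CDKN2D DCXR (0.81), CTSB (0.80) and KIF21B (0.79). For CDKN1B they were PPP2CB (0.76), RAB5A (0.76) and TAF5 (0.75), for CDKN1C OLFML2B (0.79), ZNF536 (0.77) and ZBED3 (0.75), and for CDKN2C CHMP6 (0.72), CACNG4 (0.69) and DPP3 (0.69). CDKN2A, with the narrowest range, had the weakest matches, MZT2B (0.65), TLX3 (0.61) and DOHH (0.61). Among the members themselves the highest coefficients were 0.58 between CDKN2B and CDKN2D and 0.56 between CDKN1A and CDKN2B, whereas CDKN1A and CDKN2D stood at 0.16.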

How the data were processed

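Poly-A selected RNA of 52 samples was sequenced as paired-end libraries and, per the study's methods, aligned to hg19 with STAR and quantified with RSEM; edgeR is also named in the submitters' processing notes, with no role given in the sources used here. The authors deposited 1 table per sample with 1 TPM value per gene for 27043 genes, and replicates were not pooled. Within a gene, TPM values of all samples were whole multiples of a common step (23645 of 23645 genes above 0, within 0.001 read), from which read numbers were recovered, to describe depth, for counting intervals and for 1 alternative fit.

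Samples were grouped by their labels. Same-numbered screen DMSO samples carry the same run code in the file headers, so the number pairs them by run (correlation of their deviations 0.07, with 2 pairs). Values were analysed as log2(TPM + 1), so changes of low genes are understated. Testing was limited to genes that reached a TPM of 1 in 2 samples and used limma 3.58.1 in R 4.3.3 (eBayes, trend = TRUE) with Benjamini-Hochberg adjustment across these genes. All adjusted p-values are limma's. CDKN1A between classes was tested with an exact permutation test (scipy 1.17.1). Alternatives were a pseudocount of 0.1, other expression filters, median-ratio scaling, voom weights on recovered reads, other references and leaving out samples or compounds. Counting intervals of ratios are exact binomial at 95%. Labels do not say whether samples are separate cultures, so p-values measure the spread between these samples. In the fit of all screen samples against DMSO, the 2 samples of a compound are its 2 doses and not replicates. The spread therefore includes dose differences. It is pooled over the screen, so a gene has the same SE for every compound. The code was tested on simulated data. The 7 genes and the lists were chosen with earlier results of these data known. Partners, regulators and neighbours were named by the smallest adjusted p per list in the class comparison and under LAQ824, WT161 and bromosporin. Likeness was given for the 3 closest genes per member, of which 1 is not reported here.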

Additional observations from a re-analysis of the deposited data

Results flagged for a closer look

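Of 14 checks for a sample far from its group (the 5 HDAC inhibitor means and the 4 screen DMSO samples, for each of the 7 genes), 1 was positive, and chance alone gives about 1 in 20. CDKN2C in replicate 2 of 0.1% DMSO, at 6.18 on the log2(TPM + 1) scale, was the lowest of the 4 DMSO samples. Its gap to the next sample (6.28) made up 0.902 of the whole range, which was narrow. No member lay above DMSO for all 5 HDAC inhibitors and below it for all 11 methylation compounds, or the reverse.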

How the results depend on the processing

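Of the 25 member changes called against DMSO, 12 were called under every alternative in which they were tested, and none changed sign. Not every alternative held all 25. With a mean TPM of at least 5 as the filter 18 were tested, and against the other compounds of the run 17. The cause of the losses was not tested. The number of calls was 16 with DMSO averaged per concentration and 13 with a 2-fold minimum added. It was 21 to 22 on leaving out a DMSO sample. With only the samples of a compound and DMSO in the fit it was 43, among them 21 of the 25. On the largest run 17 calls became 8 against the other compounds of that run. With DMSO averaged, the share of all genes called also fell, to 53.1% under LAQ824 and 35.8% under bromosporin. For the other counts of this paragraph the shares of all genes are not given here, so losses cannot be read as particular to the members. For HDAC inhibitors against other compounds, 0 members were called, and 0 to 3 on leaving out a compound (3 without OJI-1, with no share of all genes given). The CDKN1A class difference was 0.15 to 0.62 on leaving out a compound. It was -0.032 on the largest run, which lacked LAQ824 and MC1568. For high against low dose, 1 member (CDKN1A) was called when each dose was taken relative to its DMSO, an alternative that treats the DMSO difference as free of error. Of the 6 CDKN1A pairs 2 were called, and 1 (OJI-1 against WT161) with DMSO averaged, with median-ratio scaling or without the expression filter.

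The log2 change of CDKN1A under N1302 was 2.02 with median-ratio scaling, since that library's scale differed (log2 size factor -0.37), and 2.23 against both 6 h controls of the RH4-titled experiments. For entinostat at 6 h CDKN1A was 2.29 and 1.62 under the same alternatives. With a pseudocount of 0.1, 1 member (CDKN1C, 3 and 7 reads) was past 2-fold at 1 h of entinostat. A fit of the DMSO samples with the replicate number as a replicate block called 0 members (CDKN1A -0.14, adjusted p = 0.449). The block changed no call. CDKN1C and CDKN2B at DMSO levels are limited by depth.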

Other observations

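The 4 DMSO controls of the other experiments are given as values. CDKN2B was at 0.617 to 2.02 TPM, CDKN1C at 0.137 to 0.481 TPM, CDKN2C at 63.1 to 67.0 TPM and CDKN2D at 3.91 to 6.30 TPM in them. CDKN1A in DMSO was at 41.6 TPM at 1 h and at 27.8 and 28.1 TPM at 6 and 24 h.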
